A study of Sus scrofa with 18 samples.

Results

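The genes described here code for the extracellular matrix of the piglet liver, for the receptors that bind cells to that matrix and for the enzymes that cut and crosslink it. They were chosen by a rule on gene symbols. Symbols beginning with COL plus a number are collagens, ITGA or ITGB integrins and their partners, LAMA, LAMB or LAMC laminins, LOX lysyl oxidases, and MMP, TIMP or ADAM proteases and their inhibitors. FN1, SPARC, DCN, LUM and BGN were added by name. Of 6765 genes named on the array, 61 met this rule, and they were measured by 110 of 23935 probe sets. They comprise 15 collagens, 5 glycoproteins and small proteoglycans, 3 lysyl oxidases, 3 laminins, 13 integrin genes (12 subunits and the binding protein ITGB1BP2), 8 matrix metalloproteinases, 10 ADAM or ADAMTS genes and 4 TIMPs. For a gene with several probe sets, the one with the highest mean log2 ratio over the 18 arrays stood for it and is called the brightest. In 20 of the 61 the mean of this probe set lay among the lowest 40% of all probe sets, and these genes are called dim below. Words for brightness here refer to this mean ratio and not to signal strength. COL1A1, COL4A1, COL6A1, COL14A1, COL18A1, ITGA1 and LOXL2 were not analysed here.

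The study asked how infant formula changes hepatic gene expression in the neonatal pig. Livers came from male and female piglets at postnatal day 21. In each sex, piglets stayed on the sow's milk or went from day 2 to a commercial formula based on cow's milk (milk formula) or on soy (soy formula). Each of the 6 groups of sex and diet held 3 RNA pools, and each pool was measured on 1 Affymetrix porcine array. The labels give neither the breed nor the number of animals per pool.

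In the liver, collagens and fibronectin form the scaffold of the portal tracts and of the space between hepatocytes and sinusoids, and hepatic stellate cells and portal fibroblasts are its main makers. Integrins are receptors of an alpha and a beta subunit that hold cells to this scaffold and, on blood cells, to other cells. Matrix metalloproteinases and ADAM proteases cut matrix and surface proteins, and TIMPs inhibit them.

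The deposited value is a linear expression ratio whose divisor is not stated. A reference per probe set, shared by all arrays, is inferred from the medians that follow. A ratio is therefore read as comparing arrays and not genes. In 16 of the 61 genes the median over the 18 arrays was 1, within 0.002, and no probe set had a median above 1.0005. The array medians lay between 0.301 and 0.309. Sex could not be told apart from how the arrays were run, because 18 probe sets of added control transcripts were 7.20-fold higher on male arrays, and diets were therefore compared within a sex and averaged. In females these controls were also lower on soy than on sow-milk arrays without overlap, while the male ranges overlapped. Their mean log2 ratio per array was -1.97 to -1.87 on female soy arrays against -1.76 to -1.503 on female sow-milk arrays. It was -2.11 to -1.09 on female milk-formula arrays. In males it was 1.1 to 1.53 on soy against 0.59 to 1.11 on sow-milk arrays. The 28S ribosomal RNA control had ratios of 0.0773 to 0.155 against 0.159 to 0.252 in females and 3.66 to 3.88 against 1.62 to 4.08 in males. The part of this in the diet differences was not tested. The median within-group SD of the 61 genes was 0.157 on the log2 scale in females and 0.334 in males. The lowest single ratio of the 11 measured hepatocyte marker genes was 0.364. Differences below are log2 differences with their standard error (SE) from a linear model over 3 pools per group, and the words rose and fell are kept for a p-value below 0.05 after adjustment over all probe sets.

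Soy formula against sow milk, averaged over the sexes, changed 3 of the 61 genes. The small proteoglycan decorin (DCN) and the protease inhibitor TIMP2 fell, and the integrin subunit ITGB3 rose. These 3 are 4.92% of the genes, beside 3.28% of all probe sets and 5.62% when each named gene is counted by 1 probe set, so the share is near the background. By direction, 1.75% of all probe sets fell and 1.52% rose. Soy formula against milk formula changed only TIMP2, which fell. That is 1.64% of the genes, beside 0.66% of all probe sets (0.401% lower) and 1.27% of named genes. Milk formula against sow milk changed 0 of 61, where 0.756% of all probe sets and 1.49% of named genes passed. In that comparison 5 of the 61 had an unadjusted p below 0.05 (COL3A1, COL11A1, COL15A1, ITGB3 and TIMP2), beside 9.55% of all probe sets. The 3 comparisons share their arrays in pairs and are not independent of each other.

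**Figure D1:**
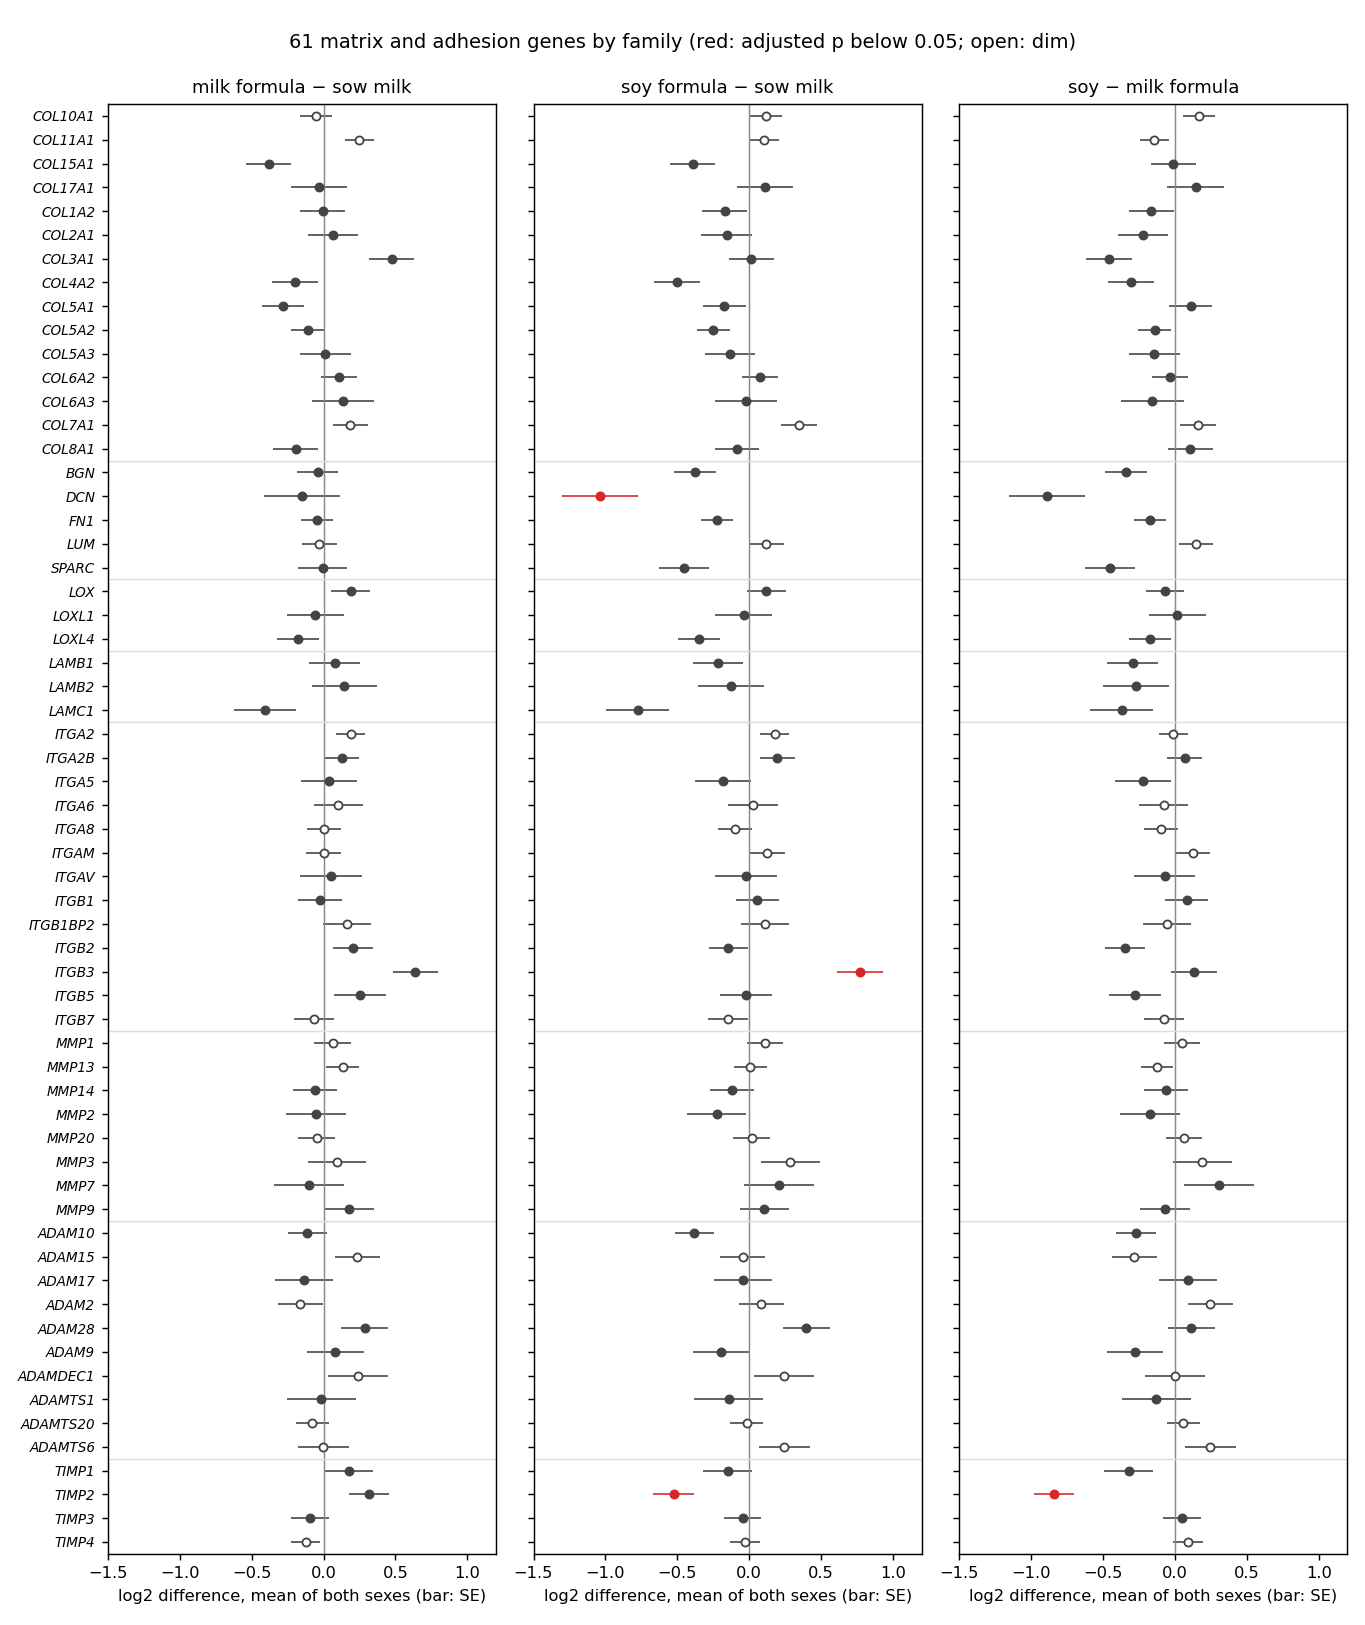
Log2 difference between diets (x axis, mean of the male and the female difference, bar 1 SE) for the 61 genes, in rows by family, with milk formula against sow milk, soy formula against sow milk, and soy against milk formula from left to right. Red points passed an adjusted p of 0.05 and open points are dim genes; most points lie within 0.5 of 0, and DCN at -1.04 and ITGB3 at 0.77 stand outermost under soy formula.

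None of the 15 collagens passed the test in any diet comparison, over both sexes or within a sex. Under soy formula against sow milk their median difference was -0.09, with 9 of 15 below 0, beside 0.000276 and 50% of all probe sets. The fibrillar collagens, which assemble into the tensile fibres of the matrix, numbered 7, and 5 of them lay below 0 in this comparison. COL1A2, a chain of type I collagen, had ratios of 1.02, 1.18 and 1.11 in females on sow milk and 0.890, 1.09 and 0.924 on soy formula. In males it had 1.23, 0.619 and 1.35 on sow milk and 0.891, 0.917 and 0.922 on soy formula. The diets overlapped in both sexes, and the difference was -0.17 (SE 0.16, adjusted p 0.709). COL5A1, which helps to set fibre width, gave -0.17 (SE 0.15, adjusted p 0.684).

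COL3A1, the chain of the type III collagen of reticular fibres, had the largest positive difference of the collagens under milk formula. Male ratios were 1.95, 2.38 and 1.14 on milk formula, 0.897, 0.939 and 1.01 on sow milk and 0.882, 1.42 and 0.998 on soy formula. All 3 male milk-formula pools thus lay above the male sow-milk pools, while female ratios on the same diets overlapped (0.790 to 1.01 on milk formula, 0.790 to 0.965 on sow milk). Over both sexes the difference from sow milk was 0.47 (SE 0.16, adjusted p 0.245). It passed the test when male milk-formula pool 3 was left out (0.63, adjusted p 0.0297), as did soy against milk formula (-0.61, adjusted p 0.0378).

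COL4A2, a chain of the basement membrane collagen, had the lowest difference of the collagens under soy formula. Female ratios were 1.47, 1.66 and 1.58 on sow milk, 1.69, 1.51 and 1.01 on milk formula and 1.18, 1.04 and 0.853 on soy formula. Every female soy pool lay below every female sow-milk pool. Male ratios overlapped, at 1.08, 0.733 and 0.927 on sow milk and 0.994, 0.554 and 0.613 on soy formula. The difference over both sexes was -0.50 (SE 0.16, adjusted p 0.112), and it passed without male soy-formula pool 1 (-0.63, adjusted p 0.0238).

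**Figure D2:**
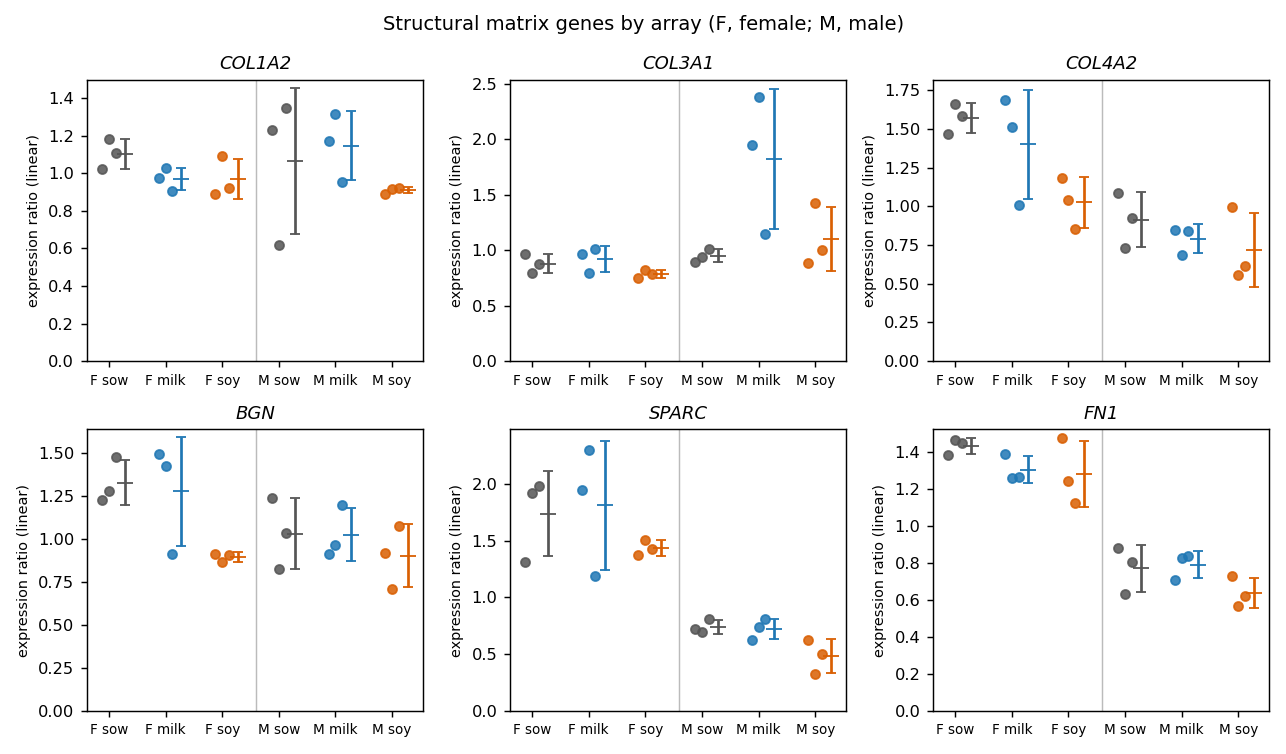
Linear expression ratio (y axis) of 6 structural matrix genes on each array, by sex and diet (x axis; F, female; M, male; sow, sow milk; milk, milk formula; soy, soy formula), with the mean and SD of the 3 pools beside the points. None of these genes passed the test between diets over both sexes; female soy-formula pools of COL4A2 (0.853 to 1.18) lie below female sow-milk pools (1.47 to 1.66), and COL3A1 is highest in 2 male milk-formula pools.

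DCN, a small proteoglycan that binds collagen fibres and growth factors, had the largest fall. In males its ratios were 0.807, 0.772 and 0.971 on sow milk, 0.805, 0.580 and 1.03 on milk formula and 0.385, 0.353 and 0.276 on soy formula. In females they were 1.23, 2.26 and 3.302 on sow milk, 2.41, 2.92 and 0.888 on milk formula and 1.07, 1.60 and 1.14 on soy formula. Male soy pools lay below all other male pools, whereas the female diets overlapped. Soy-formula pools were below the sow-milk mean on 6 of 6 arrays, and the fall was 1.04 (SE 0.26, adjusted p 0.0353), or 2.06-fold. Within males alone DCN fell by 1.34 (SE 0.25, adjusted p 0.0466), which made it the 1 of 61 genes called there (1.64%, beside 0.284% of all probe sets, 0.117% lower, and 0.488% of named genes). Within females the difference was -0.74 (SE 0.44, adjusted p 0.405), and the difference between the sexes was -0.59 (SE 0.53, adjusted p 0.837). Soy against milk formula gave -0.89 (SE 0.26, adjusted p 0.146), and -1.16 without female milk-formula pool 3 (adjusted p 0.0180).

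The call for DCN over both sexes was lost in 12 of 25 alternatives. It was lost when any 1 of 9 arrays was left out: each of the 3 male sow-milk pools, male soy pools 2 and 3, female sow-milk pools 2 and 3, and female soy pools 1 and 3 (adjusted p 0.0502 to 0.112). The call in males was lost without any of 7 of the 9 male arrays, all except milk-formula pools 2 and 3 (adjusted p 0.0710 to 0.187). A further DCN probe set, at the 0.944 percentile of brightness, differed by 0.08 (SE 0.10), and the mean of both gave DCN a difference of -0.48 (adjusted p 0.0969). The DCN call was also lost with the replicate number as a block (adjusted p 0.0565), and weighting the arrays by sex gave DCN an adjusted p of 0.280. In males the DCN call was also lost with the block (adjusted p 0.0876), the mean of both probe sets (-0.56, adjusted p 0.501) and the fit to all arrays (adjusted p 0.0759). LUM, the related proteoglycan lumican encoded next to DCN, was dim, and its difference was 0.12 (SE 0.12, adjusted p 0.747).

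Biglycan and SPARC had differences below 0 under soy formula without passing the test. BGN, the proteoglycan biglycan, had female ratios of 1.23, 1.28 and 1.48 on sow milk and 0.914, 0.865 and 0.909 on soy formula, with no overlap. In males BGN ranged from 0.823 to 1.24 on sow milk and from 0.709 to 1.07 on soy formula, and over both sexes it differed by -0.38 (SE 0.15, adjusted p 0.205). SPARC, which binds collagen and calcium, differed by -0.46 (SE 0.17, adjusted p 0.201), with male soy pools at 0.628, 0.327 and 0.501 below male sow-milk pools at 0.724, 0.691 and 0.812. Its female sow-milk pools spread from 1.31 to 1.99 and overlapped the soy pools. A further SPARC probe set, which was not dim, differed by 0.14 (SE 0.12, adjusted p 0.699).

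FN1, fibronectin, gave different results by probe set. The brightest differed by -0.22 between soy formula and sow milk (SE 0.11, adjusted p 0.387). A pair of other bright ones differed by -0.77 (SE 0.21, adjusted p 0.0523) and -0.51 (SE 0.18, adjusted p 0.157), and the last, a dim one, by 0.01 (SE 0.11). Within females the probe set at -0.51 fell by 0.85 (adjusted p 0.0122). How the probe sets of FN1 relate to its splice forms was not analysed here.

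Among the laminins, which join cells to basement membranes, LAMC1 had the lowest difference. Female ratios were 1.48, 1.57 and 1.78 on sow milk, 1.66, 1.63 and 1.04 on milk formula and 1.25, 1.08 and 1.0 on soy formula. Male ratios were 0.761, 0.739 and 1.0 on sow milk, 0.505, 0.717 and 0.417 on milk formula and 0.722, 0.226 and 0.418 on soy formula. Soy pools lay below sow-milk pools without overlap in each sex, and LAMC1 and ADAM10 were the only members with this pattern (2 of 61, beside 1.73% of all probe sets). The difference of LAMC1 was -0.78 (SE 0.22, adjusted p 0.0588), and it passed without male soy-formula pool 1 (-0.98, adjusted p 0.00505) or when dim probe sets were left out of the test (adjusted p 0.0354). Its other 3 probe sets differed by 0.00, -0.02 and 0.03. LAMB1 differed by -0.22 (SE 0.18, adjusted p 0.661).

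Of the lysyl oxidases, which crosslink collagen and elastin, none passed. LOX differed by 0.12 between soy formula and sow milk (SE 0.13, adjusted p 0.778), with all 18 ratios between 0.30 and 0.55.

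ITGB3, the beta-3 subunit that pairs with the alpha-V and the platelet alpha-IIb chains, was the 1 gene that rose. Female ratios were 0.674, 0.935 and 0.755 on sow milk, 1.13, 0.841 and 0.912 on milk formula and 1.29, 1.61 and 1.18 on soy formula. Male ratios were 0.493, 0.307 and 0.327 on sow milk, 0.874, 0.544 and 0.816 on milk formula and 0.568, 0.548 and 0.761 on soy formula. Soy pools lay above sow-milk pools in both sexes without overlap, on 6 of 6 arrays (1 of 61 genes, beside 1.61% of all probe sets). ITGB3 rose by 0.77 (SE 0.16, adjusted p 0.00834), or 1.71-fold. It passed in 25 of 25 alternatives, with adjusted p up to 0.0340.

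The male milk-formula pools of ITGB3 overlapped the male soy pools. Milk formula against sow milk gave 0.64 (SE 0.16, adjusted p 0.0765), and the test was passed without male sow-milk pool 1 (0.74, adjusted p 0.0290) or without male milk-formula pool 2 (0.74, adjusted p 0.0282). Soy against milk formula gave 0.13 (SE 0.16, adjusted p 0.850). Its partner ITGAV differed by -0.02 under soy formula (SE 0.21, adjusted p 0.982), and ITGA2B, the platelet alpha-IIb chain, by 0.20 (SE 0.12, adjusted p 0.528). Female ITGA2B ratios were 0.735 to 0.856 in all 3 diets. Male ITGA2B ratios were 0.621, 0.783 and 0.567 on sow milk, 0.943, 0.738 and 0.634 on milk formula and 1.033, 0.757 and 0.727 on soy formula. The male diets overlapped, and in each sex 3 of 3 soy pools lay above the sow-milk mean. Of the 2 platelet marker genes measured, neither was called, and their lowest single ratio was 0.133.

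Over the 12 integrin subunits the median difference between soy formula and sow milk was 0.00, with 6 below 0. ITGB1, the beta subunit shared by most matrix receptors, had female ratios between 1.44 and 1.79 and male ratios between 0.274 and 0.564 in all diets. Its soy difference was 0.06 (SE 0.15, adjusted p 0.924). The fibronectin receptor chain ITGA5 gave -0.18 (SE 0.19, adjusted p 0.763) and ITGB5, another partner of alpha-V, -0.02 (SE 0.18, adjusted p 0.975).

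**Figure D3:**
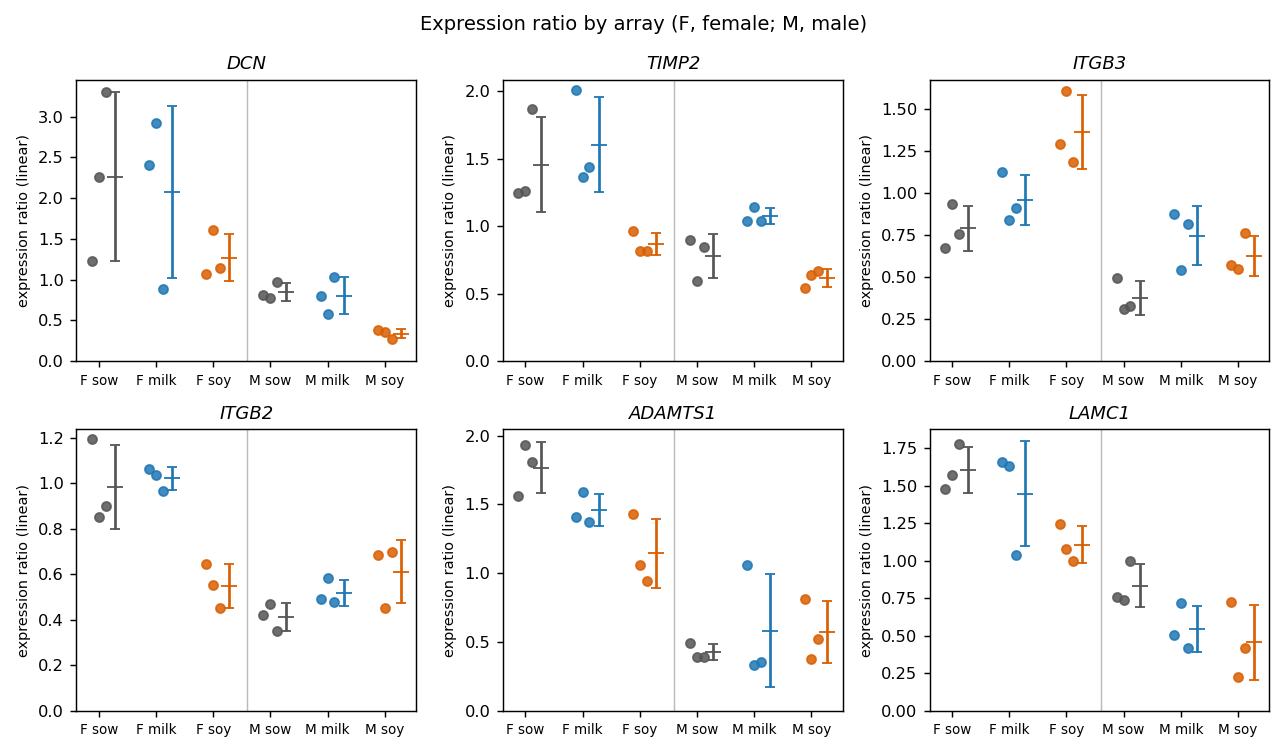
Linear expression ratio (y axis) on each array by sex and diet (x axis; F, female; M, male; sow, sow milk; milk, milk formula; soy, soy formula) for the 5 genes called in a diet comparison and for LAMC1, with the mean and SD of the 3 pools beside the points. DCN soy pools lie lowest in males, TIMP2 soy pools lie below milk-formula pools in each sex, ITGB3 soy pools lie highest in females, and ITGB2 soy pools lie lowest in females (0.451 to 0.645) but not in males (0.452 to 0.698).

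TIMP2, the inhibitor that binds MMP2 and MMP14, had its lowest mean on soy formula in each sex (0.867 in females and 0.614 in males). Female ratios were 1.24, 1.26 and 1.87 on sow milk, 2.01, 1.37 and 1.44 on milk formula and 0.964, 0.818 and 0.819 on soy formula. Male ratios were 0.894, 0.595 and 0.846 on sow milk, 1.04, 1.14 and 1.04 on milk formula and 0.538, 0.635 and 0.669 on soy formula. Soy pools lay below milk-formula pools without overlap in each sex, and TIMP2 and ADAM10 were the only members to do so (2 of 61, beside 1.05% of all probe sets). TIMP2 fell by 0.84 against milk formula (SE 0.14, adjusted p 0.00612), or 1.79-fold. This call held without each of the 18 arrays in turn (adjusted p up to 0.0256).

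Against sow milk TIMP2 fell by 0.53 (SE 0.14, adjusted p 0.0460), with 6 of 6 soy arrays below the sow-milk mean. This TIMP2 call was lost in 19 of 25 alternatives. Among these were trended variances (adjusted p 0.0600), quantile normalization (adjusted p 0.0752), the replicate block (adjusted p 0.0773), array weights by sex (adjusted p 0.197) and the mean of its probe sets (-0.33, adjusted p 0.136). It was also lost without any 1 of 14 arrays (adjusted p 0.0513 to 0.146); the 4 that could be spared were male sow-milk pool 2, male milk-formula pools 1 and 3 and female milk-formula pool 1. Milk formula against sow milk gave 0.31 (SE 0.14, adjusted p 0.476). The other TIMP2 probe set, which was not dim, gave -0.12 against sow milk (SE 0.16, adjusted p 0.808) and -0.08 against milk formula (adjusted p 0.923). With the mean of both, TIMP2 differed from milk formula by -0.46 (adjusted p 0.0717).

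TIMP1 and TIMP3 did not pass. TIMP1 differed by -0.15 between soy formula and sow milk (SE 0.17, adjusted p 0.786). TIMP3, which stays bound to the matrix, had female ratios of 0.616, 0.593 and 0.574 on sow milk and 0.472, 0.377 and 0.482 on soy formula, with no overlap. In males its soy pools (0.667 to 0.896) overlapped its sow-milk pools (0.468 to 0.754), and all 3 soy pools lay above the sow-milk mean. The difference in females was -0.43 (SE 0.12, adjusted p 0.0593).

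None of the 8 matrix metalloproteinases passed in a diet comparison. MMP2, the gelatinase made by stromal cells, differed by -0.23 between soy formula and sow milk (SE 0.21, adjusted p 0.712). In females its ratios were 1.30, 1.13 and 1.16 on sow milk and 0.918, 0.853 and 0.674 on soy formula, without overlap, and the difference there was -0.57 (SE 0.23, adjusted p 0.197). In males they overlapped, with 0.631 to 1.14 on sow milk and 0.730 to 1.49 on soy formula. MMP14, the membrane protease that activates MMP2, gave -0.12 (SE 0.15, adjusted p 0.807) and MMP9, the gelatinase of leukocytes, 0.11 (SE 0.17, adjusted p 0.866). Of the 8 MMPs, MMP1, MMP3, MMP13 and MMP20 were dim.

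Among the ADAM family, ADAM10, a protease that sheds surface proteins, had male ratios of 0.414, 0.194 and 0.273 on sow milk and 0.193, 0.176 and 0.188 on soy formula. Its female ratios were 0.324, 0.312 and 0.339 on sow milk and 0.293, 0.310 and 0.265 on soy formula. The soy pools lay below the sow-milk pools in each sex by a narrow margin, and the difference was -0.38 (SE 0.14, adjusted p 0.172). It passed without male sow-milk pool 2 (-0.51, adjusted p 0.0169). ADAM9 gave -0.19 (SE 0.20, adjusted p 0.746) and ADAM17, the protease that releases TNF, -0.05 (SE 0.20, adjusted p 0.957).

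Within females, soy formula against sow milk changed 4 of 61 genes. TIMP2, ITGB2 and ADAMTS1 fell and ITGB3 rose. They are 6.56% of the genes, beside 6.66% of all probe sets (3.6% higher and 3.06% lower) and 11.2% of named genes. Soy against milk formula in females changed 2 of 61, TIMP2 and ITGB2, which both fell (3.28%, beside 2.25% of all probe sets, 0.806% lower, and 3.67% of named genes). Milk formula against sow milk changed 0 in females and 0 in males, and soy against milk formula changed 0 in males, where 0.74%, 0.0961% and 0% of all probe sets passed. At an unadjusted p below 0.05 these last 3 comparisons held 4, 4 and 5 of the 61 genes, beside 10.9%, 6.09% and 6.18% of all probe sets.

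ITGB2, the beta chain of the leukocyte integrins, passed the test in females. Female ratios were 1.195, 0.854 and 0.902 on sow milk, 1.07, 1.04 and 0.967 on milk formula and 0.645, 0.552 and 0.451 on soy formula. Male ratios were 0.420, 0.469 and 0.349 on sow milk, 0.493, 0.585 and 0.480 on milk formula and 0.685, 0.452 and 0.698 on soy formula. The female soy pools lay below all other female pools, while all 3 male soy pools lay above the male sow-milk mean. In females ITGB2 fell by 0.84 against sow milk (SE 0.15, adjusted p 0.0102), and this call held without each of the 9 female arrays (adjusted p up to 0.0330). Against milk formula it fell by 0.91 (SE 0.15, adjusted p 0.0176), a call lost without female milk-formula pool 1 or 2 or female soy pool 2 or 3 (adjusted p 0.0512 to 0.0661). In males the difference from sow milk was 0.55 (SE 0.24, adjusted p 0.604).

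The difference between the sexes in the response of ITGB2 to soy formula was 1.39 (SE 0.27, adjusted p 0.0860), which did not pass. It passed when male soy-formula pool 2 was left out (adjusted p 0.0489). No member passed such a test for any diet pair (0 of 61 in each), beside 0.0125% of all probe sets for soy formula against sow milk, 0.00418% for milk formula against sow milk and 0% for soy against milk formula. At an unadjusted p below 0.05 there were 4 members for soy formula against sow milk, beside 7.79% of all probe sets.

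ADAMTS1, a secreted protease that cuts proteoglycans, had female ratios of 1.56, 1.93 and 1.81 on sow milk, 1.41, 1.59 and 1.38 on milk formula and 1.43, 1.06 and 0.942 on soy formula. Male ratios overlapped, from 0.390 to 0.493 on sow milk and from 0.373 to 0.816 on soy formula. In females it fell by 0.65 (SE 0.15, adjusted p 0.0277), and in males the difference was 0.36 (SE 0.40, adjusted p 0.902). The female call was lost without sow-milk pool 2 or 3 or soy pool 2 or 3 (adjusted p 0.0816 to 0.0983). The difference between the sexes was 1.0 (SE 0.48, adjusted p 0.636), and a further ADAMTS1 probe set gave -0.44 in females (adjusted p 0.135).

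In females TIMP2 fell by 0.73 against sow milk (SE 0.18, adjusted p 0.0401) and by 0.87 against milk formula (SE 0.18, adjusted p 0.0392). The TIMP2 call against sow milk was lost without any female sow-milk or soy pool (adjusted p 0.0569 to 0.117), and the call against milk formula without any female milk-formula or soy pool or sow-milk pool 2 (adjusted p 0.0503 to 0.117). ITGB3 rose in females by 0.79 (SE 0.16, adjusted p 0.0159), a call lost without sow-milk pool 1 or 3 or soy pool 2 (adjusted p 0.0517 to 0.0593). In males ITGB3 differed by 0.75 (SE 0.27, adjusted p 0.485), and TIMP2 by -0.33 (SE 0.22, adjusted p 0.820).

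**Figure D4:**
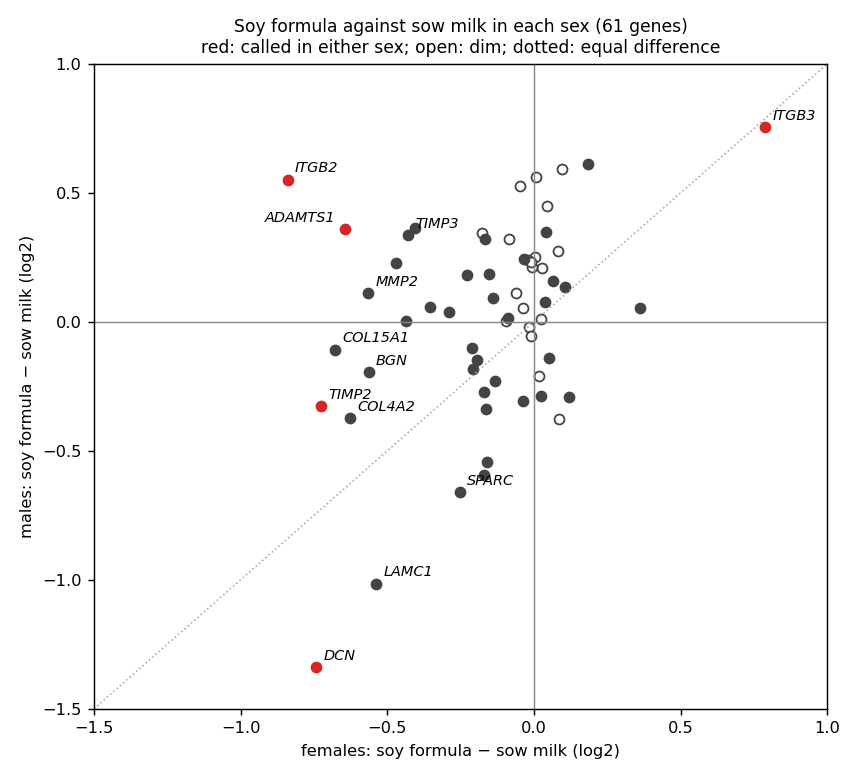
Log2 difference between soy formula and sow milk in females (x axis) against males (y axis), 1 point per gene for the 61 genes, with red for genes called in either sex, open circles for dim genes and a dotted line where the differences are equal; a selection of genes is labelled. DCN, LAMC1 and SPARC lie below 0 in both sexes and ITGB3 above 0 in both, while ITGB2 (-0.84 and 0.55) and ADAMTS1 (-0.65 and 0.36) have opposite signs.

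Over all 61 genes the soy response had no common direction across the sexes. In females 42 of 61 differences from sow milk were below 0 (68.9%, beside 52.4% of all probe sets), with a median of -0.09. In males 23 of 61 were below 0 (37.7%, beside 49.7%), with a median of 0.06. Against milk formula, 46 of 61 were below 0 in females (75.4%, beside 50.9%) and 31 of 61 in males (beside 51.9%). The 41 genes that were not dim had 31 differences below 0 over both sexes under soy formula against sow milk (75.6%, beside 50.7% of all probe sets that were not dim), with a median of -0.14. Of the 20 dim genes, 5 lay below 0, beside 50% of all probe sets, dim or not. These counts are descriptions, since genes made by the same cells are not independent.

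Female milk-formula pool 3 lay below the other pools of its group in many matrix genes. It was the lowest of the 3 pools in 23 of the 41 genes that were not dim (56.1%, beside 33.1% of all probe sets that were not dim), and its median distance from the mean of the other pools was -0.18. DCN was 0.888 there against 2.41 and 2.92, SPARC was 1.19 against 1.94 and 2.30, and BGN was 0.914 against 1.49 and 1.43. Of the measured markers, 3 of 7 stellate cell genes (42.9%) and 3 of 10 endothelial genes (30%) were lowest in this pool. The share over all probe sets was 33.7%. Another 2 stellate cell and 5 endothelial genes were highest there, and the median distance was 0.09 for each list. Of 8 macrophage genes 2 were lowest and 2 highest, with a median of -0.006. Other pools came near it: male sow-milk pool 2 was lowest of its group in 21 of the 41 genes (51.2%, beside 35% of probe sets), and female sow-milk pool 1, the low sow-milk pool of DCN, in 20 of 41 (48.8%, beside 33.4%). Without female sow-milk pool 1 the female calls of TIMP2 and ITGB3 for soy formula against sow milk were lost. Without pool 2 of that group those of TIMP2 and ADAMTS1 were lost, and without pool 3 those of TIMP2, ITGB3 and ADAMTS1. The male DCN call was lost without any of 7 of the 9 male arrays, male sow-milk pool 2 among them.

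Without female milk-formula pool 3, 9 of 61 genes instead of 4 were called in females for soy formula against sow milk, with BGN, COL4A2, LAMC1, MMP2 and TIMP3 as additions, all lower (adjusted p 0.00738 to 0.0408). That is 14.8% of the genes, beside 7.44% of all probe sets and 12.3% of named genes without this pool. With it the shares were 6.56%, 6.66% and 11.2%. The pool does not enter these differences, which kept their values; the median SE of the 61 genes was 0.120 with it and 0.109 without it. For soy against milk formula in females, 5 instead of 2 were called without it. That share was 8.2%, beside 2.51% of all probe sets and 4.24% of named genes. The additions were BGN, COL4A2, COL6A2 and LAMC1, and TIMP2 was lost. This pool was singled out after its values were seen. What set this pool apart was not tested.

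**Figure D5:**
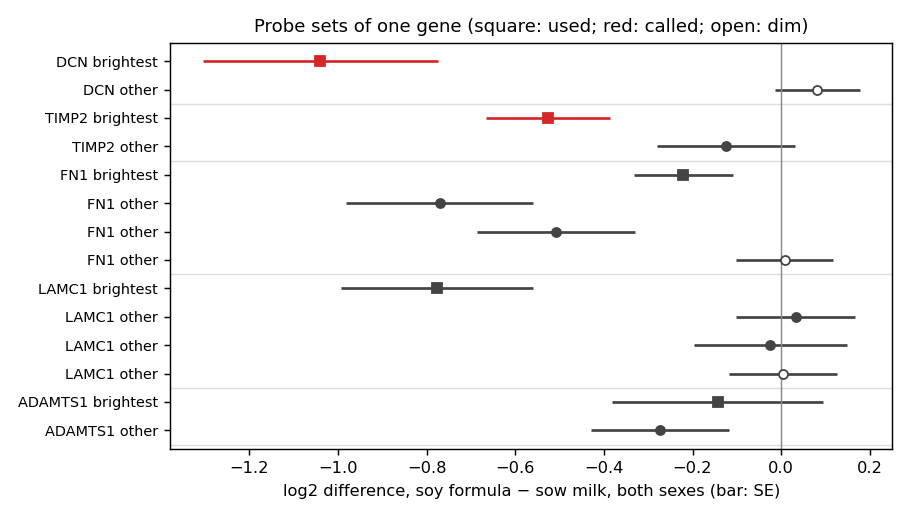
Log2 difference between soy formula and sow milk over both sexes (x axis, bar 1 SE) for every probe set of DCN, TIMP2, FN1, LAMC1 and ADAMTS1 (rows), with squares for the brightest probe set of a gene, red for an adjusted p below 0.05 and open symbols for dim probe sets. The 2 called probe sets, of DCN at -1.04 and TIMP2 at -0.53, each have a partner nearer 0 (0.08 and -0.12), and in FN1 the brightest at -0.22 is not the lowest.

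Matrix genes outside the symbol rule were counted from gene lists under soy formula against sow milk. In this comparison 5.62% of named genes passed over both sexes and 11.2% in females. Over both sexes 50% of all probe sets lay below 0. A single called gene in lists this short is not a result about the list. Of 8 collagen folding and crosslinking enzymes none passed over both sexes, with a median of -0.12. In females PLOD1, a collagen lysyl hydroxylase, fell by 0.57 (adjusted p 0.0138), and P4HA2, a collagen prolyl hydroxylase, rose by 0.59 against milk formula (adjusted p 0.0385). Of 8 further proteoglycans PRELP fell (by 0.66, adjusted p 0.0261; lost in 8 of 25 alternatives), and of 6 elastic fibre and basement membrane genes none passed. Of 10 matricellular genes, which signal from the matrix without forming fibres, periostin (POSTN) fell by 0.61 (SE 0.10, adjusted p 0.00196), and it also fell against milk formula (by 0.53, adjusted p 0.0213; lost in 6 of 25 alternatives). With the mean of its probe sets POSTN differed from sow milk by -0.32 (adjusted p 0.0748). ANGPTL4, of the same list and known as an inhibitor of lipoprotein lipase, rose on milk formula against sow milk by 1.29 (SE 0.28, adjusted p 0.0384), a call lost in 13 of 25 alternatives (adjusted p up to 0.133). In females ANGPTL4 also rose on soy formula against sow milk (by 0.97, adjusted p 0.0407).

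In the plasminogen system the protease inhibitor A2M fell (by 0.69, adjusted p 0.00594), 1 of 7 genes, and 7 of 7 lay below 0. In females PLAT, the tissue plasminogen activator, fell by 0.55 (adjusted p 0.00600) and PLG, plasminogen, by 0.38 (adjusted p 0.0361). Of 10 TGF-beta genes ENG, a co-receptor of vascular cells, fell by 0.76 (adjusted p 0.0138) and TGIF1, a repressor of the pathway, by 0.77 (adjusted p 0.00755). TGFB1 itself fell in females (by 0.80, adjusted p 0.0275). Of 8 focal adhesion genes CAV1, the main protein of caveolae, fell by 1.66 (SE 0.29, adjusted p 0.00279), and it fell by 1.32 on milk formula against sow milk (adjusted p 0.0426). The soy call of CAV1 passed in 25 of 25 alternatives, and the milk-formula call was lost in 17 of 25 (adjusted p up to 0.149). In females PARVA, of the same list, fell by 0.45 on soy formula (adjusted p 0.0472).

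Marker genes of other liver cells were counted in the same way. Of 8 macrophage genes 5 fell under soy formula against sow milk (VSIG4 by 1.0, CD5L by 0.92, AIF1 by 0.78, C1QA by 0.72 and C1QC by 0.66), with a list median of -0.69. With the mean of its probe sets VSIG4 differed by -0.44 (adjusted p 0.0568), and the AIF1 call was lost without any 1 of 3 arrays, female sow-milk pool 3 and female soy pools 2 and 3. Their summed ratio was 11.5 to 13.2 in females on sow milk, 11.4 to 13.4 on milk formula and 6.54 to 8.46 on soy formula. In males it was 5.74 to 7.73, 6.43 to 8.00 and 4.33 to 5.16. ITGB2, which leukocytes carry, had ratios of 0.451 to 0.645 on female soy arrays and 0.854 to 1.195 on female sow-milk arrays. In males they were 0.452 to 0.698 on soy formula and 0.349 to 0.469 on sow milk. How ITGB2 relates to these markers was not tested.

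Of 10 endothelial genes 3 fell (CDH5 by 0.91, ENG by 0.76 and TEK by 0.71), and 10 of 10 lay below 0, with a median of -0.43. The TEK call was lost in 5 of 25 alternatives, with the mean of its probe sets at -0.35 (adjusted p 0.09998). Their summed ratio was 9.98 to 11.3 in females on sow milk and 6.73 to 7.65 on soy formula, and 5.89 to 7.30 and 4.25 to 5.57 in males. Of 7 stellate cell and fibroblast genes RGS5 (by 0.79) and VIM (by 0.59) fell, while DES and ACTA2 differed by 0.04 and -0.01, and the list had a median of 0.04 with 3 of 7 below 0. RGS5 also fell on milk formula against sow milk (by 0.99, adjusted p 0.0264). The soy calls of RGS5 and VIM were lost in 12 and 5 of 25 alternatives (adjusted p up to 0.122 and 0.171), and the milk-formula call of RGS5 in 6 of 25. Their summed ratio was 6.69 to 7.91 in females on sow milk and 5.19 to 5.91 on soy formula, and 4.38 to 5.67 and 4.71 to 5.05 in males. The lowest single ratio was 0.218 for macrophage, 0.153 for endothelial and 0.233 for stellate cell genes. The floor of the ratios is unknown, so these values do not show which genes were detected. The part of these cells in the changes of DCN, TIMP2, ITGB3 and ITGB2 was not tested, and fewer cells of a type cannot be told apart from less RNA per cell.

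Of the other marker lists under soy formula against sow milk, 0 of 5 smooth muscle, 0 of 9 lymphocyte, 0 of 5 neutrophil, 0 of 5 bile duct, 0 of 4 erythroid and 0 of 2 platelet genes passed over both sexes. Ratios in some of these lists were low. Over the 6 groups the 9 lymphocyte genes summed to 1.93 to 2.57 per array and the 5 neutrophil genes to 0.878 to 1.40. The lowest single platelet ratio was 0.133. With an unknown floor, these counts do not show that such cells were unchanged. In females CD4, of the lymphocyte list, fell by 0.48 (adjusted p 0.0194).

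All 4 erythroid genes lay above 0 on soy formula over both sexes, the highest being AHSP, the chaperone of alpha globin, at 1.48 (SE 0.41, adjusted p 0.0585). In females HBB, the beta globin gene, rose by 0.85 against sow milk (adjusted p 0.00775) and by 0.93 against milk formula (adjusted p 0.0144). The summed erythroid ratio was 1.36 to 2.40 in females on sow milk, 2.88 to 12.9 on milk formula and 2.33 to 7.85 on soy formula, and 1.65 to 2.07, 2.32 to 2.35 and 1.92 to 3.02 in males. Its part in the results above was not tested.

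Of 11 hepatocyte genes HNF4A, a hepatocyte transcription factor, rose by 1.2 (SE 0.16, adjusted p 0.000223) on soy formula. HNF4A also rose on milk formula against sow milk (by 0.96, adjusted p 0.00529), and both calls passed in 25 of 25 alternatives. SERPINA1, which codes for alpha-1 antitrypsin, fell by 0.39 on soy formula (adjusted p 0.0457), a call lost in 17 of 25 alternatives (adjusted p up to 0.139).

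Male and female arrays differed in 36 of 61 genes, with 18 higher and 18 lower in males (59%, beside 62.6% of all probe sets, 25.8% higher and 36.8% lower, and 71.2% of named genes). The lowest in males were ITGB1 (-2.05, SE 0.12), ITGAV (-1.65, SE 0.18), ADAMTS1 (-1.55, SE 0.19), DCN (-1.48, SE 0.22) and SPARC (-1.37, SE 0.14). The highest were MMP9 (0.99, SE 0.14), COL6A2 (0.82, SE 0.10), COL2A1 (0.81, SE 0.14), COL7A1 (0.78, SE 0.10) and COL17A1 (0.63, SE 0.16). Dim genes were higher in males in 10 of 20 and lower in 0, while genes with a median ratio of 1 were lower in 12 of 16 and higher in 1. Among all probe sets, the dimmest 40% also had more higher than lower calls (3795 against 618), and the rest the reverse (2375 against 8189). The 28S ribosomal RNA control had ratios of 0.0773 to 0.383 on female and 1.62 to 4.65 on male arrays, so sex and array run cannot be told apart in these values. With quantile normalization 30 of 61 genes were called, 22 higher and 8 lower in males (73.3% higher instead of 50%; over all probe sets 49.9% instead of 41.2%). The sign turned in 9 of 61 genes, and 4 of these passed the test as higher in males: COL5A1 (0.39, adjusted p 0.00815), BGN (0.44, adjusted p 0.00666), ITGA2B (0.55, adjusted p 0.000117) and MMP2 (0.57, adjusted p 0.0150). Of the 9, COL5A1, LAMB1 and TIMP2 had been called as lower in males.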

How the data were processed

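The authors deposited 1 linear expression ratio per probe set and array for 18 arrays, each labelled, per the labels, from 8 ug of RNA. GCOS and RMA are named in the submitters' processing notes. Not given in the sources used here: their versions, the annotation build and the divisor of the ratio. All columns were matched to samples (0 unmatched). Of 24123 probe sets, 188 controls were set aside. The deposited ratios were converted to log2 and fitted with limma 3.58.1 (R 4.3.3) with 1 mean per group. Contrasts over both sexes, between sexes and of sex by diet used 18 arrays, and within-sex contrasts the 9 arrays of that sex. P-values were adjusted by Benjamini-Hochberg over 23935 probe sets, with a threshold of 0.05, and are two-sided. Nothing states how pools relate to animals or litters, so they measure the spread between pools, whose number limits the precision. The fit was tested on simulated data.

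Symbols came from the array's annotation. The 61 members matched the gene reference by gene ID, and 2 probe sets naming ITGB1BP1 with another gene were left out. Members and lists were chosen with earlier results of these data known. Genes named are members called in a diet comparison, a fixed list of matrix genes, the 5 largest rises and falls between the sexes, and up to 4 called genes per other list. Neighbouring genes follow Sscrofa11.1. Marker genes not called, COL4A2, COL15A1, COL11A1 and the genes that single arrays added were named after their values were seen. Alternatives were trended and robust variances, quantile normalization, a replicate block, array weights by sex, the mean of a gene's probe sets, no dim probe sets, within-sex contrasts from the fit to all arrays, and each array left out.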

Additional observations from a re-analysis of the deposited data

How the results depend on the processing

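The number of matrix genes called was 3 for soy formula against sow milk over both sexes. It was 1 with the mean of a gene's probe sets and 1 with array weights by sex, 2 with trended variances and 2 with quantile normalization (TIMP2 lost in each), 4 without dim probe sets (LAMC1 added), and 1 to 4 with single arrays left out. For soy against milk formula over both sexes the count was 1. It became 0 with the mean of a gene's probe sets or with array weights by sex, and 1 to 2 with arrays left out. For milk formula against sow milk it was 0 to 1 with arrays left out. Taking within-sex contrasts from the fit to all arrays gave 1 instead of 4 for soy formula against sow milk in females, 0 instead of 2 for soy against milk formula in females, 1 instead of 0 for milk formula against sow milk in males (ITGB3) and 0 instead of 1 for soy formula against sow milk in males. The last was also 0 with the mean of a gene's probe sets. With arrays left out, these 4 counts were 1 to 9, 0 to 5, 0 to 0 and 0 to 1. The counts for milk formula against sow milk in females and soy against milk formula in males stayed at 0 to 0. Tests of a difference between the sexes gave 0 to 1 for soy formula against sow milk and 0 to 0 for the other diet pairs. Male against female gave 30 to 37. The causes were not tested.

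Pool numbers recur in each group, and the labels do not say whether they pair the pools. Residuals of pools with the same number had a median correlation of -0.00839 (range -0.125 to 0.177 over 18 pairs). With 3 pools per group this cannot decide whether pools were paired. With the replicate block the counts were 1 instead of 3 for soy formula against sow milk over both sexes, 1 instead of 2 for soy against milk formula in females, 0 instead of 1 for soy formula against sow milk in males and 17 instead of 36 for male against female.

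Under quantile normalization the male minus female difference turned sign in 9 of 61 genes. Of those called before, it became 0.39 for COL5A1 (passed, higher in males), 0.085 for LAMB1 and 0.026 for TIMP2. BGN, ITGA2B and MMP2, not called before, also turned and passed as higher in males. The median difference of the 61 genes between soy formula and sow milk ranged from -0.14 to -0.01 over all settings. Brightness against background is not part of the deposited ratios, so dim genes are those with a low mean, and their differences have an unknown floor.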
